A study of Mus musculus with 8 samples.

Results

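The islet hormone genes Ins2, Gcg, Sst, Ppy, Pyy and Ghrl were followed across 4 groups of mouse pancreatic islets. They are 6 of the 17097 genes tested and were chosen by gene symbol, through the probe sets that name 1 of these symbols alone. Each gene was measured by 1 probe set, a group of short array sequences read together. Total RNA of islets isolated at 20 weeks of age was hybridised on 8 Affymetrix arrays, 2 in each group. The labels list 1 strain name for all mice, wild type included, and that name is FVB/N-Tg(Ins2-IAPP)RFHSoel/J; genotypes were wild type or hIAPP transgenic. The transgene makes human islet amyloid polypeptide, and the strain name gives Ins2 as the source of its promoter, so it is active in beta cells. Mice of either genotype stayed untreated or received PBA (4-phenylbutyrate, a chemical chaperone) in water at 1 g/kg/day for 12 weeks from the age of 8 weeks. Nothing in the labels tells if RNA of separate animals or of pools was put on the 2 arrays of each group. The p-values therefore rest on the spread between these samples alone, which may be technical.

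Islets contain several endocrine cell types, each named for its main hormone. Beta cells make insulin, which lowers blood glucose, and alpha cells make glucagon, which raises it. Delta cells make somatostatin, a local brake on the release of both. PP cells make pancreatic polypeptide, islet cells also make its relative peptide YY, and rare epsilon cells make ghrelin. All of these are cut from larger precursors in the secretory pathway by convertases and carboxypeptidases.

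None of the 6 genes passed the test in any of the 6 comparisons (limma, adjusted p of 0.05, adjusted over all genes). In the comparisons of pairs of groups, the differences of the 5 abundant hormone genes lay between -0.20 and 0.45 on the log2 scale, and those of Ghrl between 0.10 and 0.70. Pyy, Ppy, Sst and Ghrl were each higher on both PBA-treated hIAPP arrays than on both untreated hIAPP arrays, as were 22.6% of all genes. The differences were 0.25 to 0.45 on the log2 scale for Pyy, Ppy and Sst, and 0.60 for Ghrl, which lay at background level. Pyy came nearest to the threshold there, at an adjusted p of 0.0737. Ins2 and Gcg differed by 0.15 or less in every comparison of groups.

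Promoter stretches of the 4 abundant genes other than Ins2 are shown because these genes are the hormone genes measured above background and below the highest value of the table, and because Ppy and Pyy are neighbours that were both highest in PBA-treated hIAPP islets. Each is the 100 bases before the gene's start, minus strand, from RefSeq (GRCm38.p6), read 5′ to 3′. They are chr2:62483654-62483753 for Gcg, chr16:23890845-23890944 for Sst, chr11:102101320-102101419 for Ppy and chr11:102107833-102107932 for Pyy. Capitals mark TATAA on either strand (TTATA when read on the other) and TGACGTCA, the cAMP response element sequence, which reads the same on both strands. The motifs share no overlapping match here.
Gcg: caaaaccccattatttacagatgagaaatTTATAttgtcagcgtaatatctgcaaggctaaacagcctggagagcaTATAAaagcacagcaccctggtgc
Sst: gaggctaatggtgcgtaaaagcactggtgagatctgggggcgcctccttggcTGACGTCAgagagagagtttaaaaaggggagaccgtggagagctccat
Ppy: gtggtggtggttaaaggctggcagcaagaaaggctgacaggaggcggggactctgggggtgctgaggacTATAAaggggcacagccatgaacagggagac
Pyy: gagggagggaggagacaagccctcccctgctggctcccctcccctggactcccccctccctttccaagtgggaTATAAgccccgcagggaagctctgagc

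TATAA began 24 bases before the start in Gcg, 31 in Ppy and 27 in Pyy, and 10.2% of 32851 promoter windows of 100 bases held it on either strand. TGACGTCA began 48 bases before the start of Sst, and 1.15% of the windows held it. The starts of Ppy and Pyy lie 6513 bases apart on the same strand. Both genes encode peptides of the neuropeptide Y family. These matches describe the letters of the windows only.

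Markers placed the samples as islets with other tissue attached. The median level of 14 pan-endocrine genes, such as those of granins and of shared endocrine transcription factors, was 11.75 to 12.00 on the 8 arrays. Acinar marker genes (16 measured, most of them of enzymes) had medians of 8.65 to 12.50, so RNA of the exocrine pancreas was present on every array. The lowest acinar values were 8.65 and 10.35 on the PBA-treated hIAPP arrays, against 11.40 and 12.50 on the untreated hIAPP arrays. Macrophage markers (13 measured) had medians of 9.40 and 9.10 in untreated hIAPP islets and of 6.70 to 8.20 on the other arrays. In bulk RNA, fewer cells of a type and less RNA per cell cannot be told apart. On PBA-treated wild type 1 the hybridisation controls were low (median 6.60), whereas their medians were 9.30 to 9.70 elsewhere.

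**Figure D1:**
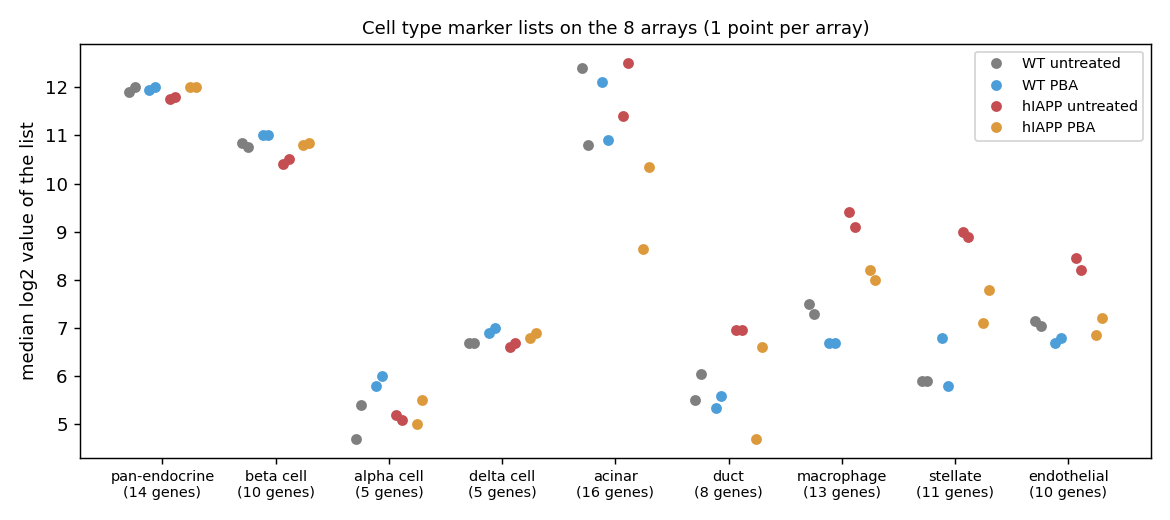
Median log2 value of 9 lists of cell type markers (vertical axis) on each of the 8 arrays, coloured by group; the number of measured genes stands under each list. Pan-endocrine medians lie between 11.75 and 12.00, whereas acinar medians run from 8.65 to 12.50 and macrophage medians are highest, at 9.40 and 9.10, in untreated hIAPP islets.

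Ins2 encodes preproinsulin 2 and was read by probe set 1422446_PM_x_at. Its log2 value was 14.0 and 14.1 in untreated wild type, 14.0 and 14.1 in PBA-treated wild type, 14.0 and 14.1 in untreated hIAPP and 14.0 and 14.0 in PBA-treated hIAPP islets. The 8 values differed by 0.1, the smallest step of the deposited table, and all groups overlapped. No probe set of a gene exceeded Ins2 on any array, and 14.1 is the highest value of the table. The authors' quantile normalisation gives every array the same distribution of probe intensities, so the brightest probes of an array are set to the same top values, and bright probes can also saturate. Whether Ins2 was saturated was not tested, and a difference between groups at the top of the scale is not measurable in these values. The suffix x in the probe set's name marks probes that may also bind related transcripts.

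The fitted differences of Ins2 were 0.00 (SE 0.10) for the transgene without PBA, -0.05 for PBA in hIAPP islets and 0.00 for PBA in wild type. For the transgene, the 95% confidence interval allowed 0.85-fold to 1.18-fold on the array's scale. These bounds describe the array values and carry the limit at the top of the scale.

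Gcg encodes preproglucagon, the source of glucagon in alpha cells, and was read by 1425952_PM_a_at. Its values were 12.9 and 13.0 in untreated wild type, 12.9 and 13.1 in PBA-treated wild type, 13.1 and 13.1 in untreated hIAPP and 13.0 and 13.1 in PBA-treated hIAPP islets. Both untreated hIAPP arrays were above both untreated wild-type arrays, and each group overlapped its neighbours in level. The transgene difference was 0.15 (SE 0.11; 95% interval -0.11 to 0.41, adjusted p = 0.4545). The order of the group means ran from untreated wild type (12.95 ± 0.07, SD, n = 2) to untreated hIAPP (13.10 ± 0.00, n = 2), in steps of 0.05.

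Sst encodes preprosomatostatin of delta cells and was read by 1417954_PM_at. Its values were 12.6 and 12.8 in untreated wild type, 12.8 and 13.0 in PBA-treated wild type, 12.7 and 12.5 in untreated hIAPP and 12.9 and 12.9 in PBA-treated hIAPP islets. The treated hIAPP arrays lay above both untreated groups, and the PBA-treated wild-type arrays touched the untreated ones at 12.8. The means were 12.60 ± 0.14 in untreated hIAPP, 12.70 ± 0.14 in untreated wild type, and 12.90 in both treated groups (SD 0.14 in wild type and 0.00 in hIAPP, n = 2 each).

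Ppy encodes the precursor of pancreatic polypeptide and was read by 1420440_PM_at. Its values were 13.4 and 13.5 in untreated wild type, 13.4 and 13.3 in PBA-treated wild type, 13.3 and 13.3 in untreated hIAPP and 13.5 and 13.6 in PBA-treated hIAPP islets. The lowest group was untreated hIAPP (13.30 ± 0.00, SD, n = 2) and the highest PBA-treated hIAPP (13.55 ± 0.07, n = 2). Each group overlapped its neighbours in this order.

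Pyy encodes the precursor of peptide YY, a gut and islet hormone that acts on neuropeptide Y receptors, and was read by 1424865_PM_at. Its values were 12.6 and 12.9 in untreated wild type, 12.8 and 12.7 in PBA-treated wild type, 12.6 and 12.5 in untreated hIAPP and 13.0 and 13.0 in PBA-treated hIAPP islets. Of the 6 genes it alone had a highest group, PBA-treated hIAPP, whose arrays lay above those of all 3 other groups. The share of all genes with such a group was not counted. Higher without overlap in PBA-treated hIAPP were 22.6% of all genes against untreated hIAPP. These shares were 15.6% against PBA-treated wild type and 15.3% against untreated wild type. The means were 12.55 ± 0.07 in untreated hIAPP, 12.75 in both wild-type groups (SD 0.21 untreated and 0.07 with PBA) and 13.00 ± 0.00 in treated hIAPP islets (n = 2 each).

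Ghrl encodes preproghrelin and was read by 1448980_PM_at. Its values were 3.5 and 3.7 in untreated wild type, 3.6 and 4.2 in PBA-treated wild type, 3.3 and 4.1 in untreated hIAPP and 4.4 and 4.2 in PBA-treated hIAPP islets. Probe sets that should bind no mouse transcript (23 non-specific controls) centred on 3.1 (median), and no Ghrl value reached their 95th percentile, 4.68. Ghrl was therefore not above background in any group, and its differences are differences between background-level values.

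**Figure D2:**
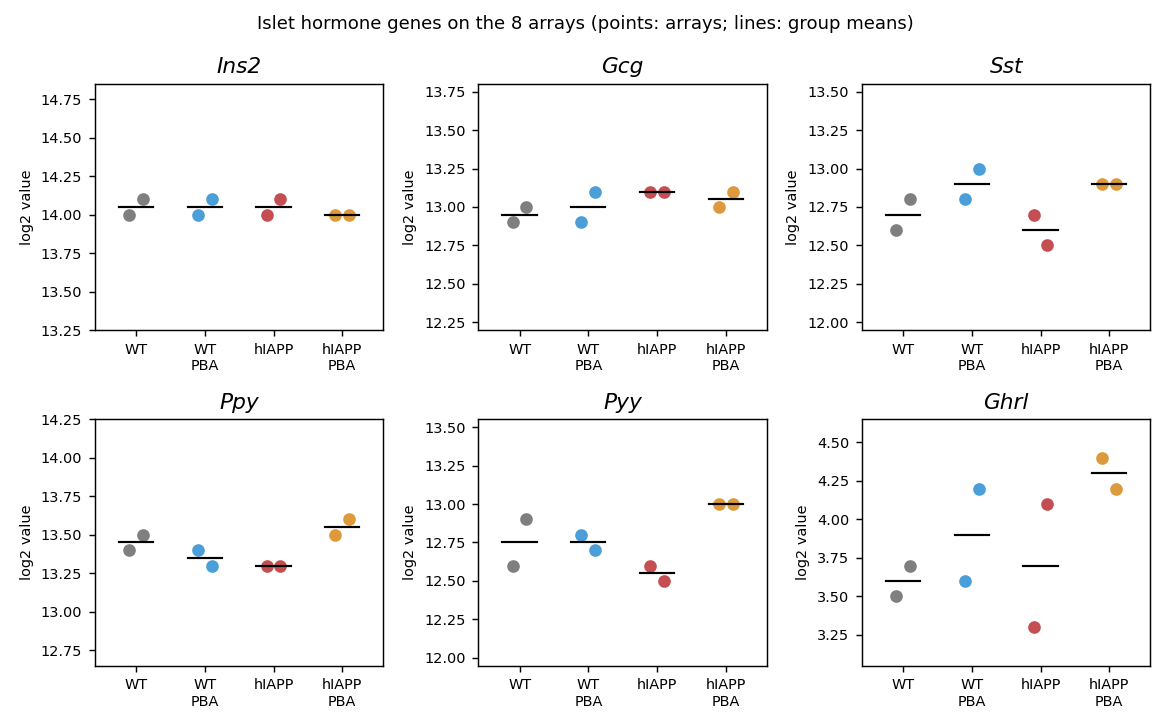
Log2 value (vertical axis, each panel spanning the same 1.6 log2 units) of the 6 hormone genes by group; points are arrays and lines group means, n = 2 per group. Ins2 sits at 14.0 to 14.1 on all arrays, Pyy is highest at 13.0 on both PBA-treated hIAPP arrays, and Ghrl lies at 3.3 to 4.4.

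How far a bright gene could move was read from all genes. Over the 8 arrays, the gap between the highest and lowest array was 0.1 for Ins2, 0.2 for Gcg, 0.3 for Ppy and 0.5 each for Sst and Pyy. The 84 genes with a mean of at least 12 had a median gap of 0.30, with 62 of them narrower than Pyy and 12 wider. A gap of at least 1 was seen in 5.95% of these 84 genes, in 5.01% of the 858 genes from 10 to 12 and in 21.8% of the 5619 genes from 5 to 8. The 5 bright genes with such a gap, named after their values were seen, were the acinar enzyme genes Cela3b (3.1), Ctrb1 (2.8) and Amy2a5 (1.8) and the globin genes Hbb-b2 (1.8) and Hba-a1 (1.3). Their means were 12.08 to 12.52, below those of all 5 abundant hormone genes.

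**Figure D3:**
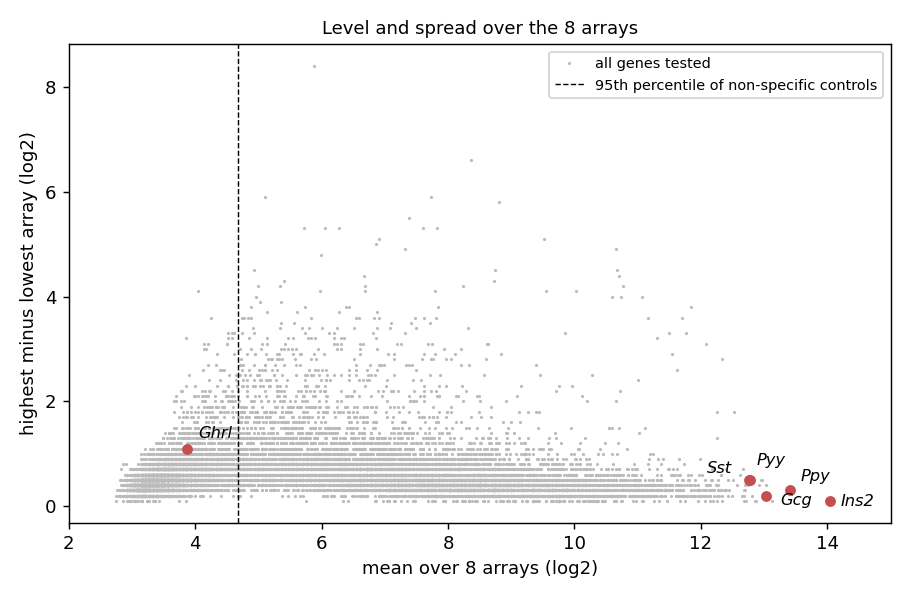
Gap between the highest and lowest of the 8 arrays (vertical axis, log2) against the mean over the arrays (horizontal axis, log2) for all 17097 genes in grey and the 6 hormone genes in red; Sst and Pyy nearly coincide. The 5 abundant hormone genes are among the brightest and have gaps of 0.1 to 0.5, and Ghrl lies left of the dashed line at 4.68.

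The comparison of untreated hIAPP with untreated wild-type islets asks what the transgene changed without treatment. None of the 6 hormone genes passed, while 11.0% of all genes passed, and none had an unadjusted p below 0.05, as 25.1% of all genes had. Of the 84 bright genes, those with a mean of at least 12, 1.19% passed. The differences were -0.20 for Pyy (SE 0.12), -0.15 for Ppy (SE 0.10), -0.10 for Sst (SE 0.13), 0.00 for Ins2, 0.10 for Ghrl and 0.15 for Gcg. Their median was -0.05, as it was over all genes. Arrays did not overlap for Gcg, higher in hIAPP, and for Ppy, lower, which is the case for 46.0% of all genes. Pan-endocrine genes had a median of -0.23 in this comparison, and 2 of 14 fell. Markers of other cells rose: 12 of 13 of macrophages (median 1.75), 9 of 11 of connective tissue, 7 of 10 of endothelium (0.75) and 3 of 8 of ducts (0.80), and their part in the differences of the hormone genes was not tested. With each array centred on the pan-endocrine list, Gcg was at 0.33, Ins2 at 0.17, Sst at 0.07, Ppy at 0.03 and Pyy at -0.03, so Sst and Ppy changed sign. Ins2 lay at 14.0 to 14.1 on every array, so its centred value mirrors the shift of the list and is no result for Ins2. None of the 6 passed with that centring (adjusted p = 0.1156 to 0.9141 in limma).

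PBA in hIAPP islets was, of the 6 comparisons, the one with the largest median difference of the hormone genes, though not the largest for each gene. None of the 6 passed, whereas 8.09% of all genes and 4.76% of the 84 bright genes did, and 3 of the 6 had an unadjusted p below 0.05, as did 23.0% of all genes. Pyy was 0.45 higher with PBA (SE 0.12; 1.37-fold, 95% interval 1.12 to 1.67; adjusted p = 0.0737). Sst was 0.30 higher (SE 0.13, adjusted p = 0.2157) and Ppy 0.25 higher (SE 0.10, adjusted p = 0.1870). Ghrl was 0.60 higher at background level (SE 0.29, adjusted p = 0.2709). Ins2 and Gcg were each at -0.05 (adjusted p = 0.8263 and 0.8353).

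In the same comparison, 4 of the 6 genes were higher without overlap of the arrays, as were 22.6% of all genes. The median of the 6 was 0.28 and that of all genes 0.00. Of 14 pan-endocrine genes, 12 were higher without overlap, with a median of 0.23. Acinar markers changed by a median of -2.25 with 2 of 16 fallen, macrophage markers by -1.20 with 11 of 13 fallen, connective tissue markers by -1.35 with 8 of 11 fallen and endothelial markers by -1.08 with 8 of 10 fallen. With arrays centred on the pan-endocrine list, Pyy was at 0.23, Sst at 0.07, Ppy at 0.03 and Ins2 and Gcg at -0.28 each, and none passed (adjusted p = 0.1359 to 0.9100). For Ins2, at 14.0 to 14.1 on every array, the centred value again mirrors the shift of the list and is no result for Ins2. With the acinar level as a covariate, Pyy was at 0.31 (adjusted p = 0.5785) and Sst at 0.06 (adjusted p = 0.9131). The acinar medians themselves were 8.65 and 10.35 with PBA against 11.40 and 12.50 without it. This fit therefore cannot separate the acinar level from the treatment. The part of these tissues in the differences was not tested.

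The call in this comparison depended on the variance model. With a spread that follows intensity and robust priors, Pyy (adjusted p = 6.0e-04), Ppy (adjusted p = 0.0111) and Sst (adjusted p = 0.0193) passed in limma. Over all genes, 2292 of 17097 passed under that model, against 1384 under the main one. With only genes of a mean of at least 5 tested, Pyy alone of the hormone genes passed in limma (adjusted p = 0.0460), beside 1389 over all genes then tested. Across the 8 fits that left out 1 array, Pyy stayed at 0.40 to 0.50 and did not pass (adjusted p = 0.0585 to 0.2459).

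**Figure D4:**
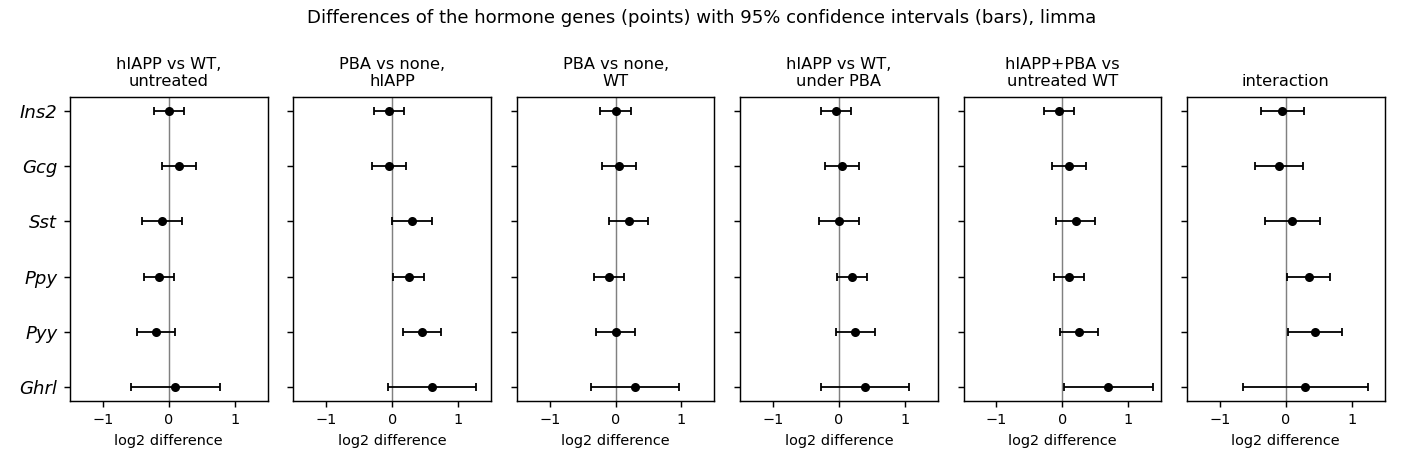
Log2 difference (horizontal axis) of each hormone gene in the 6 comparisons, with 95% confidence intervals from limma as bars. For PBA in hIAPP islets the intervals of Pyy (0.16 to 0.74) and Ppy (0.02 to 0.48) lie above 0, that of Sst (0.00 to 0.60) starts at 0 after rounding, and no gene passed after adjustment over all genes.

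PBA in wild-type islets asks what the drug did without the transgene. The 6 genes differed by -0.10 to 0.30, none had an unadjusted p below 0.05 (10.5% of all genes) and none passed, as 0.292% of all genes and 0.00% of the 84 bright genes did. Sst was 0.20 higher with PBA (SE 0.13, adjusted p = 0.6167), Ppy was at -0.10 (SE 0.10) and Pyy at 0.00 (95% interval -0.29 to 0.29). No hormone gene separated the 2 groups without overlap, against 28.5% of all genes. PBA-treated wild type 1, the array with low hybridisation controls, is in this comparison. Without it Pyy was at -0.05 and Sst at 0.30, and none of the 6 genes passed.

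The test of whether the PBA difference depended on genotype gave 0.45 for Pyy (SE 0.18, unadjusted p = 0.0364) and 0.35 for Ppy (SE 0.14, unadjusted p = 0.0410). Neither passed in limma (adjusted p = 0.2558 and 0.2705), as 1.96% of all genes and 1.19% of the bright genes did, and Ppy and Pyy are 2 of 6 with an unadjusted p below 0.05, against 16.2% of all genes. The other 4 genes were at -0.10 to 0.30. With an intensity trend and robust priors both passed in limma (adjusted p = 0.0218 for Pyy and 0.0232 for Ppy), as did 1060 of all 17097 genes. With pan-endocrine centring they were at 0.25 and 0.15 (adjusted p = 0.4965 and 0.6792).

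The transgene under PBA left Pyy 0.25 (SE 0.12) and Ppy 0.20 (SE 0.10) above PBA-treated wild type, both at an adjusted p of 0.4620, and both higher without overlap of arrays, as were 15.6% of all genes. None of the 6 genes passed, while 0.415% of all genes and 2.38% of the bright genes did. None had an unadjusted p below 0.05 either, against 12.1% of all genes. Ins2 was at -0.05, Sst at 0.00 and Gcg at 0.05.

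Against untreated wild type, PBA-treated hIAPP islets had Pyy at 0.25 (adjusted p = 0.5150), Sst at 0.20 (adjusted p = 0.6268), Ppy and Gcg at 0.10 and Ins2 at -0.05. Ghrl, at background level, was at 0.70 (SE 0.29, adjusted p = 0.4347) and was the only 1 of the 6 with an unadjusted p below 0.05, as 11.0% of all genes had. None passed, as 0.368% of all genes and 0.00% of the bright genes did. Pyy, Sst and Ghrl were higher without overlap, as were 15.3% of all genes. The comparisons that share a group of arrays are not independent of each other.

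Genes that process, store or modify prohormones were called at rates near or below those of all genes for the transgene (11.0% of all genes), PBA in hIAPP islets (8.09%) and PBA in wild type (0.292%). Of 21 measured, 2 rose and 0 fell with the transgene (median 0.00), 1 rose and 0 fell with PBA in hIAPP islets (median 0.15), and 0 passed with PBA in wild type. For the transgene under PBA 1 rose, beside 0.415% of all genes called. For PBA-treated hIAPP against untreated wild type 1 rose, beside 0.368%. By overlap of arrays the list differed more from all genes. With PBA in hIAPP islets 14 of 21 were higher without overlap and 2 lower, against 22.6% of all genes higher. For PBA-treated hIAPP against untreated wild type 11 were higher and 1 lower, against 15.3% of all genes higher. Vgf, which encodes a granule protein cut into peptides, had values of 6.7 and 6.4 in untreated wild type, 7.3 and 7.1 in PBA-treated wild type, 8.6 and 8.4 in untreated hIAPP and 8.2 and 8.2 in PBA-treated hIAPP islets. It rose by 1.95 with the transgene (SE 0.14, adjusted p = 4.9e-04) and passed in all 8 fits without 1 array. It was also higher in hIAPP than in wild type under PBA (1.00, adjusted p = 0.0430) and in PBA-treated hIAPP than in untreated wild type (1.65, adjusted p = 0.0051), and passed in 0 of 8 such fits in either case. Pam, whose enzyme amidates peptide ends such as that of pancreatic polypeptide, rose by 0.50 with the transgene (adjusted p = 0.0200). It passed in 4 of the 8 fits and was lost without any 1 of the 4 arrays compared (0.45 to 0.55, adjusted p up to 0.1108).

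Pcsk1, which encodes proprotein convertase 1/3 of proinsulin processing, was at 11.0 and 10.9 in untreated wild type, 11.1 and 11.2 in PBA-treated wild type, 10.6 and 10.6 in untreated hIAPP and 11.2 and 11.2 in PBA-treated hIAPP islets. The untreated hIAPP arrays were lowest. Pcsk1 rose by 0.60 with PBA in hIAPP islets (SE 0.10, adjusted p = 0.0116), a call lost without any 1 of the 4 hIAPP arrays (adjusted p up to 0.0795), and its transgene difference of -0.35 did not pass (adjusted p = 0.0617). With pan-endocrine centring the rise was 0.38 (adjusted p = 0.0711). Cpe, the carboxypeptidase gene, was at 0.00 for the transgene and 0.20 for PBA in hIAPP (SE 0.19 each, adjusted p = 1.0000 and 0.5914). Pcsk2 and Mboat4 were not analysed here.

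Transcription factors that switch hormone genes on or keep cell types apart were measured for 15 genes. With the transgene 1 rose and 2 fell (median -0.15), and with PBA in hIAPP islets 2 rose and 0 fell (median 0.15), beside the 11.0% and 8.09% of all genes called there. Counts this small do not set the list apart from all genes. Hhex, a factor of delta cells, was at 7.4 and 7.4 in untreated wild type, 7.8 and 7.7 in PBA-treated wild type, 8.1 and 8.3 in untreated hIAPP and 7.8 and 8.0 in PBA-treated hIAPP islets. It rose by 0.80 with the transgene (adjusted p = 0.0058) while Sst, the delta-cell hormone gene, was at -0.10. The call for Hhex was lost without untreated wild type 1 or 2, with the difference at 0.80 in both fits. Which cells of these mixed samples carried the rise was not tested. Pax6 (-0.50, adjusted p = 0.0227; 4 of 8 fits) and Neurod1 (-0.50, adjusted p = 0.0412; 0 of 8 fits), both shared endocrine factors, fell. The call for Pax6 was lost without any 1 of the 4 untreated arrays (adjusted p up to 0.1191) and that for Neurod1 without any 1 of the 8 (up to 0.2044). With pan-endocrine centring each was at -0.33 and did not pass (adjusted p = 0.1156 and 0.1352). Both are members of the pan-endocrine list, as is Isl1, so that centring is not an independent check for these genes. Isl1 (0.60, adjusted p = 0.0163; 4 of 8 fits) and Nkx2-2 (0.50, adjusted p = 0.0353; 2 of 8 fits), also islet factors, rose with PBA in hIAPP islets, and neither passed with that centring (0.38 and 0.28). The call for Isl1 was lost without any 1 of the 4 hIAPP arrays (adjusted p up to 0.1039), and that for Nkx2-2 held only without untreated wild type 1 or 2 (otherwise up to 0.1733). Pdx1, an activator of the insulin genes, was at -0.45 for the transgene and 0.40 for PBA in hIAPP islets (adjusted p = 0.0624 and 0.1046).

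Receptors and receptor substrates for the 6 hormones were measured for 15 genes, and with the transgene 1 rose and 1 fell (median -0.10). With PBA in hIAPP islets 1 rose and 1 fell (median 0.05), and with PBA in wild type 0 passed. These shares, too, lie near the 11.0% and 8.09% of all genes. Igf1r, which encodes the IGF-1 receptor of the insulin receptor family, fell with the transgene (-0.60, adjusted p = 0.0175; 6 of 8 fits) and rose with PBA in hIAPP islets (0.50, adjusted p = 0.0430; 0 of 8 fits). The fall was lost without untreated wild type 2 or untreated hIAPP 1 (-0.50 each, adjusted p = 0.1108 and 0.1042), and the rise without any 1 of the 8 arrays (adjusted p up to 0.1795). Over the mean of its probe sets neither passed (-0.35 and 0.24, adjusted p = 0.0518 and 0.1795). Npy1r, a receptor gene for peptide YY and neuropeptide Y, rose with the transgene (0.80, adjusted p = 0.0165; 4 of 8 fits) and fell with PBA in hIAPP islets (-0.85, adjusted p = 0.0166; 1 of 8 fits). Its values of 3.4 to 4.8 lie around the background limit of 4.68, and over the mean of its probe sets neither difference passed (0.53 and -0.47). The rise was lost without any 1 of the 4 untreated arrays (adjusted p up to 0.1318), and the fall held only without PBA-treated hIAPP 1 (otherwise up to 0.1392). The glucagon receptor gene Gcgr (7.9 to 8.3 on the 8 arrays), the insulin receptor gene Insr (7.8 to 8.2) and the somatostatin receptor gene Sstr3 (8.7 to 9.2) did not pass in any comparison. Ghsr, the ghrelin receptor gene, lay at 3.4 to 3.6, below the background limit.

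Of the 14 calls in these 3 lists, 13 were lost with only the 4 arrays compared in the fit, and also without both PBA-treated replicates 1, and the transgene call for Vgf was the exception. With the acinar level as a covariate 8 were lost, among them all 5 for PBA in hIAPP islets. Adjusted p in limma was then 0.1937 for Pcsk1, 0.2182 for Isl1, 0.3171 for Nkx2-2, 0.3811 for Igf1r and 0.1252 for Npy1r. In the same order, their differences were 0.61, 0.62, 0.51, 0.47 and -1.06, against 0.60, 0.60, 0.50, 0.50 and -0.85 without the covariate. Thus the calls were lost although the differences did not shrink, or shrank little. Over all genes 86 passed in that comparison with the covariate, against 1384 without it. The median of the acinar markers was -2.25 in that comparison, so the covariate and the treatment cannot be separated there.

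Markers of single endocrine cell types were set beside the hormones. Alpha-cell markers (5 measured) had a median of 0.10 for the transgene and 0.10 for PBA in hIAPP islets, with 0 passing. Delta-cell markers (5 measured) were at 0.20 and 0.15, with Hhex the 1 that passed, for the transgene. With PBA in wild type the alpha-cell markers had a median of 0.55 and all 5 were higher without overlap, and the delta-cell markers had a median of 0.35 with 4 of 5 higher without overlap, against 28.5% of all genes not overlapping in either direction. None of these passed, and 3 of 5 and 4 of 5 had an unadjusted p below 0.05, as 10.5% of all genes had. Ttr, which encodes transthyretin, came nearest (0.55, adjusted p = 0.0891 in limma), while Gcg was at 0.05 and Sst at 0.20. Of the alpha-cell markers, Pou3f4 (3.9 to 4.6) lay below the background limit of 4.68 on all arrays. Irx1 lay below it in untreated wild type (4.2 and 4.2). PBA-treated wild type 1, the array with low hybridisation controls, is among the arrays compared for PBA in wild type. The interaction had a median of -0.70 for the alpha-cell and -0.30 for the delta-cell markers, with 0 passing. Beta-cell markers (10 measured) were at -0.45 with the transgene, where 3 passed as lower, and at 0.45 with PBA in hIAPP islets, where 3 passed as higher. Over all genes 11.0% and 8.09% were called there. With the transgene 9 of 10 were lower without overlap, where 46.0% of all genes did not overlap in either direction. With PBA in hIAPP islets 9 of 10 were higher without overlap, as were 22.6% of all genes. Those that passed as lower with the transgene were Trpm5 (-1.30), Ucn3 (-0.85) and Gipr (-0.75), at adjusted p of 0.0021, 0.0051 and 0.0076 in limma. They are a channel, a peptide and an incretin receptor gene of beta cells. Those that passed as higher with PBA in hIAPP islets were Gipr (0.75), Trpm5 (0.75) and Pcsk1. The calls for Trpm5, Ucn3 and Gipr were not rerun without single arrays. Ins2 was at 0.00 and -0.05 in the same 2 comparisons, at the top of the scale.

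Genes with a like pattern over the 8 arrays were sought for Sst, Pyy and Ghrl, whose own gap was at least 0.5, among genes with a mean of at least 6 and a gap of at least 0.5. For Sst they were Rgs11 (Pearson's r = 0.973), Echdc2 (0.941) and Ikbke (0.939). For Pyy they were Tmem183a (0.930), Eif1ad (0.920) and Ctnnal1 (0.916), and for Ghrl Celsr2 (0.928), Fbxo30 (0.903) and Sec24d (0.888). These are the highest of 4335 correlations for Sst and for Pyy and of 4336 for Ghrl, over 8 arrays that share groups, and the values are rounded to 1 decimal.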

How the data were processed

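The deposited table holds log2 values that the authors made with RMA in the affy package, per the submitters' processing notes, with no version; RMA adjusts background, quantile-normalises the arrays and summarises each probe set. They carry 1 decimal and were taken unchanged. Of 45141 probe sets, 104 are controls, 28898 name exactly 1 gene, 551 several and 15588 none; where a gene had several, its brightest set by mean was kept, which gave 17097 genes. limma 3.58.1 in R 4.3.3 fitted 4 group means to all 8 arrays (4 residual and 3.27 prior degrees of freedom). Tests were two-sided, with Benjamini-Hochberg adjustment over all genes and a threshold of 0.05. Simulated data with known changes were used to test the fit. The precision is limited by the number of arrays, 2 per group. The members, lists, tests and the rule for named genes (the 6 members, list genes past the threshold with up to 4 per list, some fixed pathway genes and the 3 genes most alike) were chosen with earlier results of these data known. Alternatives covered the samples fitted, the variance model, a replicate block, the probe set, the genes tested, centring, an acinar covariate and arrays left out. Scanner files were not used here, so background correction and normalisation were not varied. Promoters come from RefSeq, for 5 of the 6 genes. Python 3.11.15 with pandas 2.3.3 and matplotlib 3.10.9 was used for tables and plots.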

Additional observations from a re-analysis of the deposited data

How the results depend on the processing

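Of 600 values of the 6 hormone genes under the alternatives, 68 belong to 4 differences reported as 0.00, which had no direction to keep; they ran from -0.19 to 0.17 and none passed. Of the other 532, 493 kept their direction and their side of the threshold, 23 came to 0.00, 6 passed newly and 10 changed sign, none of which passed. Hormone genes called in limma went from 0 to 3 for PBA in hIAPP islets and from 0 to 2 for the interaction with an intensity trend and robust priors, and from 0 to 1 for PBA in hIAPP with only genes of a mean of at least 5 (Ghrl is then not tested). In the fits without 1 array they were 0 throughout, with 0 to 3 at an unadjusted p below 0.05. The sign changes were Sst (0.07) and Ppy (0.03) for the transgene and Sst for the interaction (-0.10) with pan-endocrine centring, Gcg for the transgene under PBA (-0.01) and Sst for the interaction (-0.13) with the acinar covariate, and Ghrl for the interaction without both PBA-treated replicates 1 (-0.10). In the fits without 1 array, Ghrl ran from -0.30 (without untreated hIAPP 2) to 0.50 for the transgene and from -0.10 (without untreated hIAPP 1) to 0.70 for the interaction. Gcg ran from -0.05 to 0.15 for PBA in wild type (lowest without PBA-treated wild type 2) and for the transgene under PBA (lowest without PBA-treated wild type 1). The causes were not tested.

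Counts over all genes moved more. The transgene gave 1874 genes, 483 with the 4 arrays compared or without both PBA-treated replicates 1, 2820 of all probe sets, and 572 to 1578 without 1 array. PBA in hIAPP gave 1384, 14 with the 4 arrays compared, 2292 with the trend, 2506 with the centring, 86 with the acinar covariate, 0 without both PBA-treated replicates 1 (3360 at an unadjusted p below 0.05 in limma) and 166 to 968 without 1 array. PBA in wild type gave 50, 0 with the 4 arrays or without both replicates 1 (1803 and 1649 unadjusted in limma), 300 with the trend, 5 with the block, 88 with the filter, 78 with the centring and 0 to 2 without 1 array (1213 to 2882 unadjusted). The transgene under PBA gave 71, 0 with the 4 arrays (1901 unadjusted in limma), 349 with the trend, 15 with the block, 4 with the covariate, 1 without both replicates 1 and 5 to 13 without 1 array. PBA-treated hIAPP against untreated wild type gave 63, 0 with the 4 arrays (2440 unadjusted in limma), 365 with the trend, 30 with the block, 2 with the covariate, 1 without both replicates 1 and 2 to 16 without 1 array. The interaction gave 335, 1060 with the trend, 118 with the block, 906 with the centring, 4 with the covariate, 0 without both replicates 1 (2556 unadjusted in limma) and 0 to 3 without 1 array (2252 to 3252 unadjusted).

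With the replicate number as a block, Pyy for PBA in hIAPP had an adjusted p of 0.1199 and 0 hormone genes passed in any comparison (0 to 2 unadjusted in limma). Same-numbered arrays did not deviate together (correlation of within-group differences across genes -0.14 to 0.10), so the numbers were not taken as pairs. The alternatives for processing, regulator and receptor genes were added after the data were seen.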
